A study of Mus musculus with 6 samples.

Results

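The TALE homeobox genes encode transcription factors whose DNA-binding homeodomain carries an extra loop, and 9 of them were followed here in methylated DNA captured from the mouse heart. They were Meis1, Meis2, Meis3, Pbx2, Pbx3, Pbx4, Pknox1, Pknox2 and Tgif1, and every region that the deposited table assigns to 1 of these symbols was taken. There were 47 such regions, out of 213957 distinct regions in the table, and they belonged to 8 of the 9 genes. Tgif1 had no region assigned to it. All 47 were peaks, the short intervals in which methylated DNA was enriched, out of 101253 peaks in all.

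The libraries came from ventricles of male C57BL/6 mice with no transgene or treatment named in the labels, with 3 libraries from postnatal day 1 (P1) and 3 from day 14 (P14). The sample names give the left ventricle, while the protocol describes ventricles with the septum intact after removal of the atria. The series calls the libraries biological replicates, but whether 1 animal or a pool stands behind each is not given in the sources used here. DNA fragments were captured through a protein domain that binds methylated CpG sites (MBD-seq), so a value is a count of captured reads and not a methylation level. Expression markers of heart muscle cannot be checked in captured DNA, and because the tissue is a mixture, a shift in the mix of cell types and a change of methylation within 1 cell type cannot be told apart.

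MEIS and PKNOX (also called PREP) proteins bind DNA together with PBX proteins, and PBX proteins in turn pair with HOX factors, which lets these complexes read longer DNA sites than any partner alone. TGIF1 is a repressor that works with SMAD proteins in TGF-beta signalling. In the newborn heart, Meis1 is known as a regulator that helps bring heart muscle cell division to a stop, and it acts in part through cell cycle inhibitors of the CDKN family. Meis2 and the PBX genes are known for roles in the outflow tract and the neural crest cells that reach it.

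Before any peak is compared, the sequences in front of the genes show how many CpGs stood at starts that no peak covered. RefSeq promoter windows on GRCm38.p6 were at hand for 6 of the 9 genes, namely Meis1, Meis2, Meis3, Pbx2, Pbx4 and Tgif1, the last with 5 alternative starts. The 250 bases upstream of a start are printed here for 4 genes, 5′ to 3′ on the strand of the gene, with each CpG, the dinucleotide that is methylated, in capitals. They are the Meis1 window (chr11:19018970-19019219, minus strand), the Meis2 window (chr2:116064620-116064869, minus strand), the Meis3 window (chr7:16175145-16175394, plus strand) and the Pbx2 window (chr17:34592009-34592258, plus strand).
Meis1: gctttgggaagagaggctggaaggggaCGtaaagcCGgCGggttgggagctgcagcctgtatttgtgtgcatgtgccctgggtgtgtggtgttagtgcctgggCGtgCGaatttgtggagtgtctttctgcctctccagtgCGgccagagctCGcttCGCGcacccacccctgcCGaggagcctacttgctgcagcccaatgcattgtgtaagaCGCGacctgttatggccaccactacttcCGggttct
Meis2: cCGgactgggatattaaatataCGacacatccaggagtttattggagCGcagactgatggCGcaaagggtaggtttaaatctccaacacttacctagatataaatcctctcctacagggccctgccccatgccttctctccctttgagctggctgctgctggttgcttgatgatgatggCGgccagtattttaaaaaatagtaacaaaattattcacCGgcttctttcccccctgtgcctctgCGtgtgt
Meis3: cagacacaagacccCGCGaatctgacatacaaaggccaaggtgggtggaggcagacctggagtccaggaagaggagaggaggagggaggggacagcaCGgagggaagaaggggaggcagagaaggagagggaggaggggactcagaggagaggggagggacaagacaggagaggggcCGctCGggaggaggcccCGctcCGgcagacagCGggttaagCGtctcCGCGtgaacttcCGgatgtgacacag
Pbx2: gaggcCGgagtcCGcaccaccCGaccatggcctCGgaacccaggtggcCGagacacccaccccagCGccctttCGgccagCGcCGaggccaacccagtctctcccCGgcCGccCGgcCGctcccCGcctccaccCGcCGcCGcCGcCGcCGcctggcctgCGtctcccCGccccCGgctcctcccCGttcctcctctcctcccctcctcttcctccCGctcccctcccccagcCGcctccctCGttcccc
The Pbx2 window held 27 CpGs and was 77.6% G or C, which put it above 91.4% of all 32817 such windows in CpG count. The Meis1 window held 13 CpGs, the Meis3 and Pbx4 windows 12 each, and the Meis2 window 7, beside a median of 6 over all windows. The 5 Tgif1 windows held 2 to 18. At least 1 CpG stood in 92.1% of all windows.

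None of the 10 windows touched a peak, and all 10 lay in the long stretches between peaks. Over all windows, 7.32% touched a peak. Captured peaks therefore lay beside these starts and not on them, at distances that differed from gene to gene. The Pbx2 start was nearest to its peak, at 1556 bp, and the Meis3 start was 2073 bp from its first peak. The Meis1 start was 4005 bp from its closest peak, the Pbx4 start 8146 bp and the Meis2 start 21803 bp. Each distance belongs to the start at hand. The RefSeq spans of Meis1, Meis2, Meis3 and Pbx4 reach upstream of that start, and any start further upstream was not examined. Over all starts the median distance to the nearest peak of any gene was 6787 bp, a measure by which the Pbx4 start lay at 5746 bp, from a peak of Lpar2.

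Inside the genes, all 47 peaks lay within the RefSeq span of the gene they were assigned to. The peaks are numbered here along the chromosome, so that for Meis1 and Meis2, which are read from the minus strand, the highest number lies closest to the start. Pknox1 (ENSMUSG00000006705, chromosome 17, 31564722 to 31607693) was the most densely covered of the larger genes, with 10 peaks over 31.8% of its 42972 bp. Pknox2 (ENSMUSG00000035934, chromosome 9, 36890979 to 37147342) had 12 peaks over 3.52% of its span. Meis1 (ENSMUSG00000020160, chromosome 11, 18880428 to 19019651) had 10 peaks over 6.73% of its span. Meis2 (ENSMUSG00000027210, chromosome 2, 115861264 to 116067537) and Pbx3 (ENSMUSG00000038718, chromosome 2, 34171457 to 34372045) were sparsely covered, with 5 and 3 peaks over 1.74% and 0.939%. Among the 1780 protein-coding autosomal genes that span 100 to 300 kb, the median number of peaks was 6, the middle 50% ran from 2 to 13, and 34.6% had 3 peaks or fewer. The 4 long members, Meis1, Meis2, Pbx3 and Pknox2, all lay within that middle range. The other 3 were Meis3 (ENSMUSG00000041420, chromosome 7, 16174012 to 16186510) with 3 peaks, Pbx4 (ENSMUSG00000031860, chromosome 8, 69832476 to 69872292) with 3, and Pbx2 (ENSMUSG00000034673, chromosome 17, 34592259 to 34597400) with a single peak over 46.3% of its span.

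Member peaks were 490 to 2520 bp wide with a median of 776 bp, beside 852 bp over all peaks. Their median mean level was 5.51 CPM at P1 and 5.74 CPM at P14, beside 7.11 and 6.77 CPM over all peaks. CPM here are the depth-scaled counts that edgeR gives, taken over the reads in peaks with TMM factors. Counts were low, with a median of 11 to 13 reads per member peak in the P1 libraries and 18 to 37 in the P14 libraries.

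The libraries differed in ways that touch each value that follows. Total reads ran from 16284216 to 21512072. The share of reads that fell in peaks was 11.59% to 13.4% in P1 libraries and 17% to 31.32% in P14 libraries, highest in P14 replicate 1. P1 replicate 1 had 2392 peaks with no read at all, beside 30 and 37 in the other P1 libraries. It held 0 reads in 2 member peaks, and it was the lowest of the P1 libraries in 25 of the 47 (53.2%), beside 40.6% of all peaks. It was the highest of them in 21 members (44.7%), beside 38.4% of all peaks and 82.3% of the peaks called lower at P14. The part of these differences in the results was not tested, beyond leaving libraries out.

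Across the age groups, 0 of the 43 member peaks with enough reads to test passed the test of age, edgeR's quasi-likelihood F test with Benjamini-Hochberg adjustment at 0.05. Over all 96772 peaks tested, 2.56% passed, which were 101 peaks (0.104%) higher and 2380 (2.46%) lower at P14. At an unadjusted p under 0.05 in that test there were 3 of the 43 member peaks, 1 higher and 2 lower. Over all tested peaks 7.58% had such a p, 2.33% higher and 5.26% lower, so the member counts were near the background. DESeq2 also called 0 of the member peaks for which it gave an adjusted p, where it called 2.8% of all, 0.093% higher and 2.7% lower. By contrast limma-voom called 2, both at Meis2 and both lower at P14, where it called 4.44% of all, 0.103% higher and 4.33% lower. Log2 changes of the 43 ran from -1.94 to 1.25 with a median of 0.07, beside -0.0079 over all tested peaks. There were 25 positive and 18 negative values, and 49.0% of all tested peaks were positive.

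**Figure D1:**
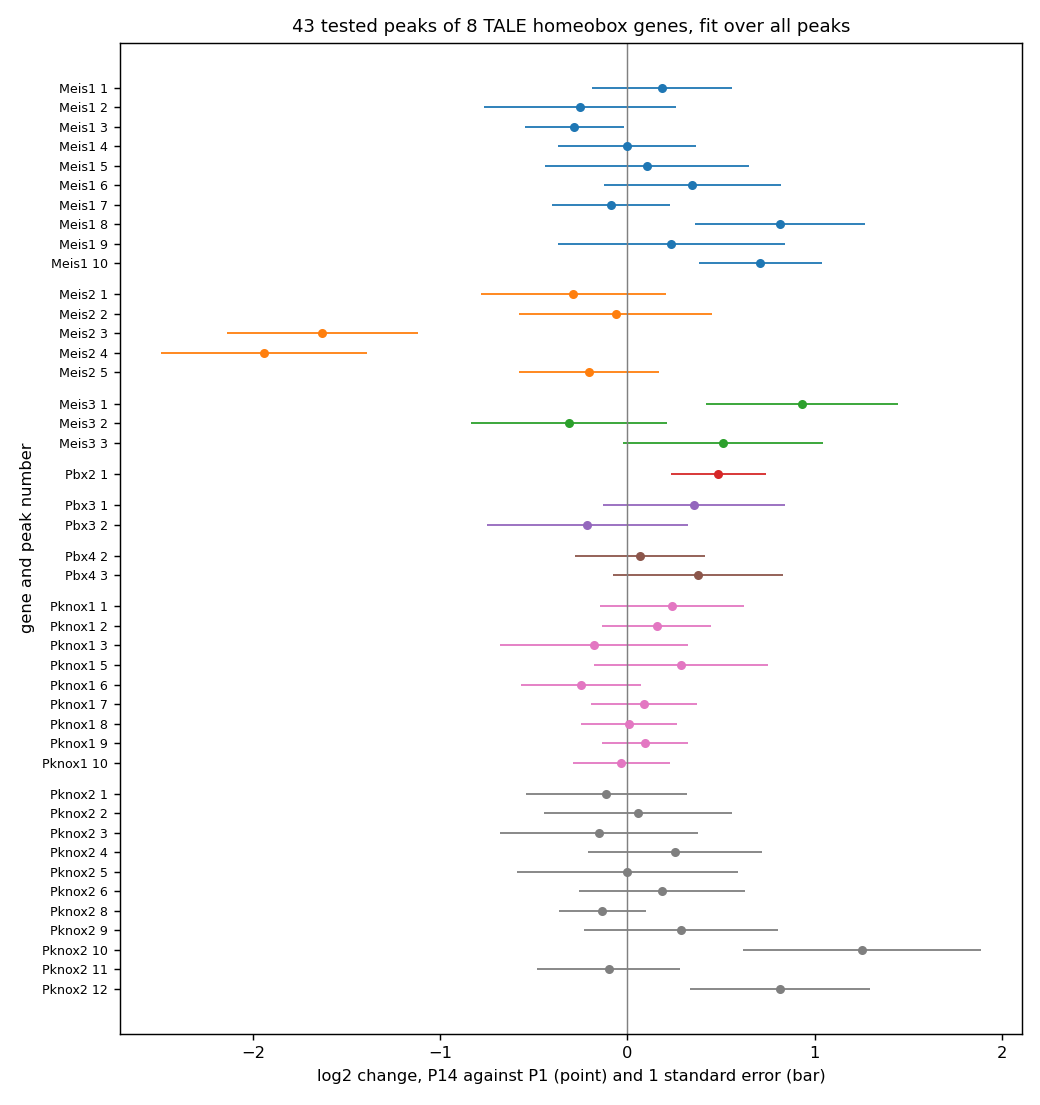
Log2 change from P1 to P14 on the x axis for each of the 43 tested peaks, grouped by gene and numbered along the chromosome on the y axis, with bars of 1 standard error. Meis2 peaks 3 and 4 lie at -1.63 and -1.94, apart from the others, which lie between -0.31 and 1.25.

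All 5 Meis2 peaks had negative log2 changes in this fit, although only peaks 3 and 4 stayed negative under scaling by the reads outside peaks, and these 2 had the largest values. Meis2 encodes a MEIS protein active in the embryonic outflow tract. Its peak 4 (chromosome 2, 116018849 to 116019403) held 18, 10 and 17 reads in P1 replicates 1 to 3 and 6, 9 and 8 at P14. In scaled values these were 9.27, 4.52 and 7.80 CPM at P1 and 0.835, 2.34 and 2.88 CPM at P14. All P1 libraries were above all P14 libraries, even in raw reads and although the P14 libraries held more reads in peaks. The mean was 7.20 ± 2.44 CPM at P1 and 2.02 ± 1.06 CPM at P14 (SD, n = 3), a log2 change of -1.94 (SE 0.55) with an adjusted p of 0.0656 (edgeR). It did not pass the threshold, and limma-voom gave -2.56 with an adjusted p of 0.00703.

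Peak 3 of Meis2 (chromosome 2, 115974978 to 115975753) lies further from the start than peak 4. It carried 9, 25 and 23 reads in the P1 libraries and 9, 12 and 14 in the P14 libraries, which were 4.64, 11.3 and 10.6 CPM and 1.25, 3.11 and 5.03 CPM. The groups overlapped, since P1 replicate 1 lay below P14 replicate 3. The log2 change was -1.63 (SE 0.51, adjusted p = 0.112 in edgeR's test), and -2.18 with an adjusted p of 0.00823 in limma-voom. Without P14 replicate 1 the edgeR values were -1.43 at peak 4 and -1.12 at peak 3, with adjusted p of 0.419 and 0.65. Both peaks also had negative values under every scaling tried, the smallest being -0.87 and -0.62 when peaks were scaled to the reads between them.

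The other Meis2 peaks were closer to level. Peak 1 (chromosome 2, 115908351 to 115908870), the densest of the gene, carried 7, 10 and 15 reads in the P1 libraries and 27, 24 and 6 in the P14 libraries, with a log2 change of -0.29 (SE 0.49), which turned to 0.88 under scaling by the reads outside peaks. Peak 5 (chromosome 2, 116041650 to 116042816), the closest to the start, carried 12, 16 and 14 reads against 42, 24 and 14, with a log2 change of -0.21 (SE 0.38). The value at Meis2 peak 5 turned to 0.99 under that scaling. Groups overlapped in both.

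**Figure D2:**
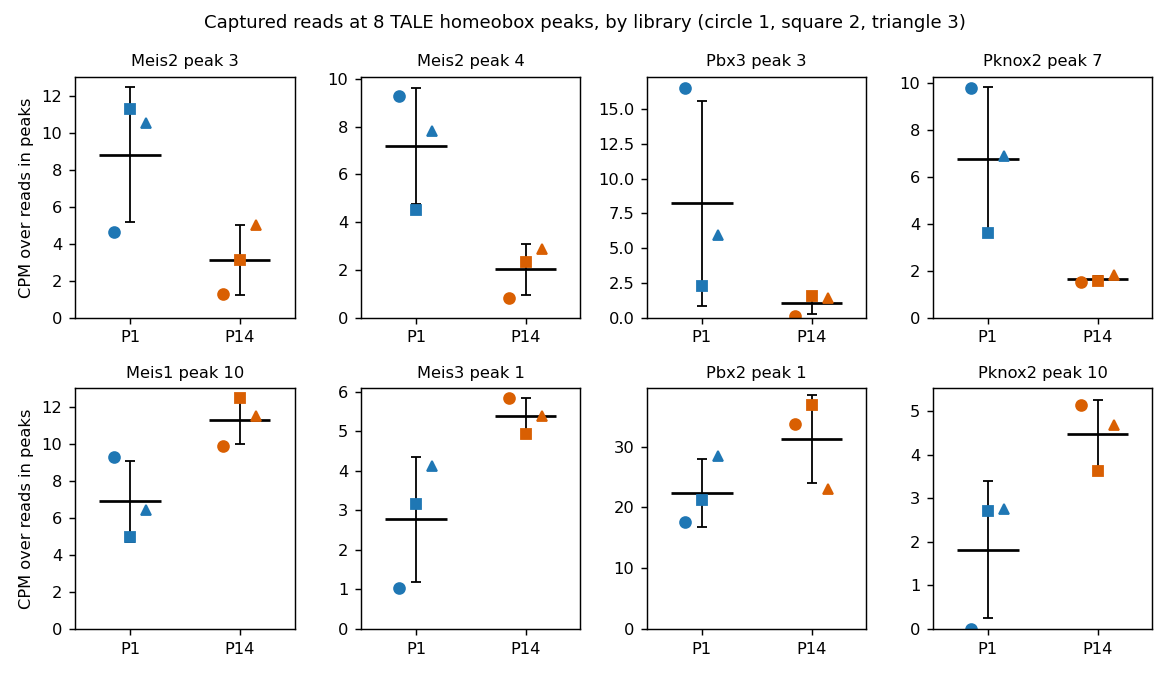
TMM-scaled CPM on the y axis of 8 peaks in each library, with P1 in blue and P14 in orange, a line for the mean and bars for 1 SD (n = 3). The upper row holds the 4 peaks with higher means at P1 and the lower row 4 peaks with higher means at P14, and P1 replicate 1 is the highest P1 library at Pbx3 peak 3 (16.5 CPM) and at 0 at Pknox2 peak 10.

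Meis1 is the member best known in the newborn heart. With all libraries in the fit it had its largest log2 changes at peaks 8 and 10, while peak 9 between them was closer to 0. Peak 10 (chromosome 11, 19013187 to 19014964), which the table also assigns to Gm16141, carried 18, 11 and 14 reads in the P1 libraries and 71, 48 and 32 in the P14 libraries. The scaled values were 9.27, 4.97 and 6.42 CPM against 9.88, 12.5 and 11.5 CPM. All P14 libraries were above all P1 libraries, by a narrow margin between P1 replicate 1 and P14 replicate 1. The log2 change was 0.71 (SE 0.33), with an unadjusted p of 0.044 and an adjusted p of 0.612 (edgeR). Peak 8 (chromosome 11, 19007446 to 19008599), which the table shares with Gm16140, carried 13, 7 and 5 reads against 54, 32 and 14, with a log2 change of 0.82 (SE 0.45, adjusted p = 0.876). Without P1 replicate 1 the value at Meis1 peak 8 was 1.40, and without P1 replicate 2 it was 0.67. Peak 9 (chromosome 11, 19009006 to 19009549) had a log2 change of 0.24 (SE 0.61). RefSeq places Gm16141 across peaks 8, 9 and 10, so that these peaks cannot be given to Meis1 alone.

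In the rest of Meis1 the values were smaller than at peaks 8 and 10 when all libraries were used. Peak 3 (chromosome 11, 18910776 to 18912151), the densest of the gene at 11.1 CPM per kb, carried 26, 41 and 40 reads in the P1 libraries and 88, 67 and 33 in the P14 libraries. In CPM these were 13.4, 18.5 and 18.4 against 12.2, 17.4 and 11.9, and the groups overlapped. Its log2 change was -0.28 (SE 0.27) and turned to 0.87 under scaling by the reads outside peaks. Peaks 1, 2, 4, 5, 6 and 7 had log2 changes from -0.25 to 0.35, each smaller than its standard error. At peaks 5 and 6 the values were -0.37 and -0.04 without P1 replicate 1, and 0.73 and 1.18 without P1 replicate 2. In the latter fit both were above peaks 8 and 10 (0.67 and 0.52), so the order of the peaks depended on the library left out.

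Meis3, the third MEIS gene, had 3 peaks in which P1 replicate 1 held only 2, 1 and 2 reads. Peak 1 (chromosome 7, 16177468 to 16178197), the nearest to the start, carried 2, 7 and 9 reads in the P1 libraries and 42, 19 and 15 in the P14 libraries. The scaled values were 1.03, 3.16 and 4.13 CPM against 5.84, 4.93 and 5.39 CPM, and the groups did not overlap. The log2 change was 0.93 (SE 0.51, adjusted p = 0.856), and without P1 replicate 1 it was 0.61. Peak 3 (chromosome 7, 16182108 to 16182817), the densest, held 2, 9 and 15 reads against 41, 13 and 24 (log2 change 0.51, SE 0.54). The log2 change at peak 2 was -0.31 (SE 0.52), and its CPM of 12.2 and 8.26 in P1 replicates 2 and 3 lay above all 3 P14 libraries while P1 replicate 1 lay at 0.515. The sign at Meis3 peak 2 depended on the libraries and the scaling, with -0.80 without P1 replicate 1, 0.34 without P1 replicate 2 and 0.85 under scaling by the reads outside peaks.

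The products of the PBX genes are the DNA-binding partners of MEIS and PKNOX. The single Pbx2 peak had the highest mean CPM of all member peaks over both ages. It is wide, at 2382 bp, and its 11.3 CPM per kb lay below the 12.8 at Pknox2 peak 8. At P1 its mean of 22.4 CPM equalled that of Pknox1 peak 9. The Pbx2 peak covers chromosome 17, 34593815 to 34596196, inside Pbx2, and the table also assigns it to the neighbouring gene Ager. Reads were 34, 47 and 62 at P1 and 243, 142 and 64 at P14, which were 17.5, 21.2 and 28.5 CPM and 33.8, 36.9 and 23.0 CPM. P14 replicate 3 lay below P1 replicate 3, so the groups overlapped. The means were 22.4 ± 5.56 and 31.2 ± 7.27 CPM (SD, n = 3), a log2 change of 0.49 (SE 0.25, adjusted p = 0.783).

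Pbx3 held a peak with the opposite pattern in a region with few reads. Peak 3 (chromosome 2, 34357903 to 34358473) carried 32, 5 and 13 reads in the P1 libraries and 1, 6 and 4 in the P14 libraries, or 16.5, 2.26 and 5.97 CPM and 0.139, 1.56 and 1.44 CPM. All P1 libraries were above all P14 libraries, with P1 replicate 1 far above the other P1 libraries. The filter on low counts removed this peak. With no filter, its log2 change was -3.12 (SE 0.76, adjusted p = 0.0361 in edgeR's test), where 2.71% of all 101253 peaks passed, 0.113% higher and 2.6% lower. Without P1 replicate 1 that value was -2.14 with an adjusted p of 0.378, and of the other libraries only P1 replicate 2 could be left out with the call kept (adjusted p = 0.0385). Peak 1 of Pbx3 (chromosome 2, 34175464 to 34176262) carried 3, 13 and 12 reads against 31, 22 and 20, with a log2 change of 0.35 (SE 0.49).

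Pbx4, a PBX gene known mainly from the testis, had 3 peaks with overlapping groups. Peak 3 (chromosome 8, 69869618 to 69870491) carried 7, 12 and 7 reads in the P1 libraries and 31, 25 and 15 in the P14 libraries, with a log2 change of 0.38 (SE 0.45). Peak 2 (chromosome 8, 69864526 to 69865435), the densest, carried 19, 14 and 17 reads against 77, 26 and 19, with a log2 change of 0.07 (SE 0.35). Peak 1 was removed by the filter.

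The PKNOX genes, whose products bind PBX proteins, held 22 of the 47 peaks, and Pknox1 gave even values. Its 10 peaks overlapped between ages in every case. The 9 tested had log2 changes from -0.25 to 0.28. Its largest peak by reads, peak 9 (chromosome 17, 31601810 to 31604329), carried 50, 46 and 45 reads in the P1 libraries and 185, 83 and 67 in the P14 libraries, which were 25.8, 20.8 and 20.7 CPM and 25.7, 21.5 and 24.1 CPM. Once scaled, these libraries were nearly level, with a log2 change of 0.09 (SE 0.23). Peak 6 (chromosome 17, 31592821 to 31593844), the densest, held 23, 23 and 25 reads against 46, 51 and 26. Its log2 change was -0.25 (SE 0.32) and turned to 0.85 under scaling by the reads outside peaks.

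Pknox2 held peaks of both patterns. Peak 10 (chromosome 9, 37107646 to 37108335) carried 0, 6 and 6 reads in the P1 libraries and 37, 14 and 13 in the P14 libraries, or 0, 2.71 and 2.75 CPM and 5.15, 3.63 and 4.67 CPM. All P14 libraries were above all P1 libraries, with a log2 change of 1.25 (SE 0.64, adjusted p = 0.749), the highest among members, which depends on the prior count because of the 0. Without P1 replicate 1 the value at Pknox2 peak 10 was 0.76, and Meis1 peak 8 was then the highest. Peak 7 (chromosome 9, 37035355 to 37036023) carried 19, 8 and 15 reads in the P1 libraries and 11, 6 and 5 in the P14 libraries. In CPM these were 9.79, 3.61 and 6.88 against 1.53, 1.56 and 1.80, and the groups did not overlap. The filter removed it too. With no filter its log2 change was -2.01 (SE 0.54, adjusted p = 0.0483 in edgeR's test), and it did not pass with any single library left out. Without P1 replicate 1 the adjusted p was 0.286.

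The densest Pknox2 peak was level between ages. Peak 8 (chromosome 9, 37081718 to 37083271), which also overlaps Gm34538 in RefSeq, carried 38, 45 and 49 reads in the P1 libraries and 127, 71 and 59 in the P14 libraries. In CPM these were 19.6, 20.3 and 22.5 against 17.7, 18.4 and 21.2, and at 12.8 CPM per kb it was the densest of all 47 peaks. The log2 change was -0.13 (SE 0.23), and it turned to 0.019 with no TMM factor and to 1.04 under scaling by the reads outside peaks.

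Tgif1 (chromosome 17, 70844205 to 70853532) could not be compared. The nearest peak to any of its 5 starts was 8230 bp away, and for the farthest start it was 14985 bp. The table lists only regions with a mean of at least 10.0 reads per library. All 5 Tgif1 starts lay in listed stretches between peaks, which carry no gene name. What Tgif1 lacked was therefore an assigned peak, and that is not a measure of its methylation.

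Counted over all 47 peaks, every P14 library lay above every P1 library in 3, at Meis1 peak 10, Meis3 peak 1 and Pknox2 peak 10, where 4.64% of all peaks did so. Every P1 library lay above every P14 library in 3 others, Meis2 peak 4, Pbx3 peak 3 and Pknox2 peak 7, where 7.44% of all peaks did so. Both shares are near the background and say nothing particular about these genes.

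Reads summed over all peaks of a gene gave 1 level per gene, compared per kb of peak because the genes differ in covered length. These sums are CPM over reads assigned to genes, so they are not on the scale of the single peaks. At P1 the order from the top was Pbx2 at 11.98 ± 3.27, Meis2 at 11.5 ± 0.95, Pbx3 at 10.9 ± 4.3, Pknox1 at 10.2 ± 0.544 and Pknox2 at 10.2 ± 0.189 CPM per kb (SD, n = 3). Meis1 followed at 9.43 ± 1.12, Pbx4 at 7.44 ± 0.808 and Meis3 at 6.88 ± 4.89. Each neighbouring pair in this order differed by less than the larger of their SDs, except Meis1 and Pbx4. By the smaller SD, Pbx3 and Pknox1 also lay apart, as did Pknox2 and Meis1. At P14 Pbx2 was again the highest, at 16.9 ± 3.52 CPM per kb. Pknox1, Meis1 and Pknox2 lay together at 10.9 ± 0.53, 10.7 ± 1.59 and 10.6 ± 1.57, above Pbx4 at 9.23 ± 0.809 and Meis3 at 8.61 ± 1.6. Meis2 and Pbx3 were the lowest, at 7.24 ± 2.02 and 6.99 ± 2.36. At P14 only Pbx2 stood further from its neighbour in the order than the larger of their SDs. By the smaller SD, Pknox2 and Pbx4 also lay apart.

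**Figure D3:**
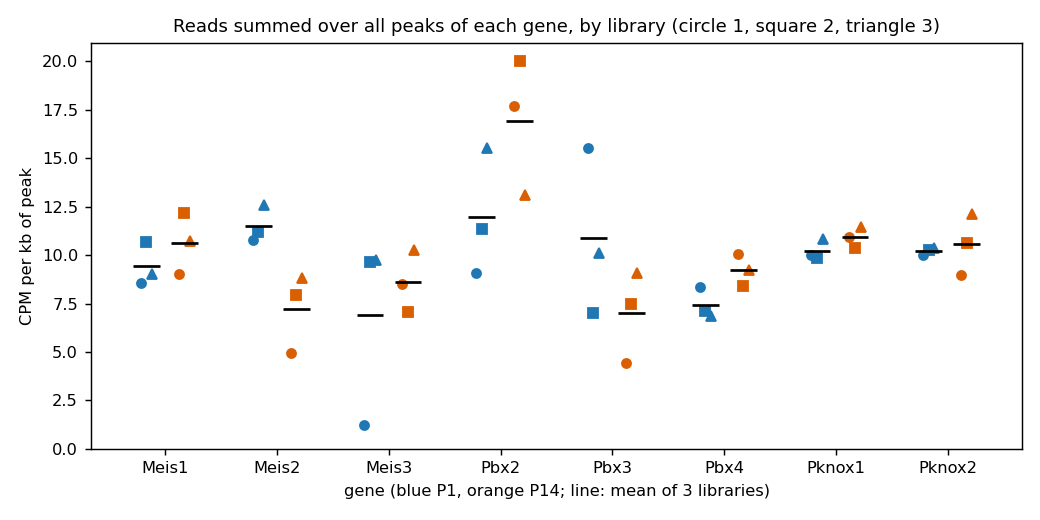
CPM per kb of peak on the y axis for reads summed over all peaks of each gene on the x axis, 3 libraries at P1 in blue and 3 at P14 in orange, with lines for means. The Meis2 libraries separate by age, with P1 higher, and those of Pbx4 separate narrowly, with P14 higher. Those of Pknox1 and Pknox2 lie on the same level, and Meis3 has 1 low P1 library.

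With all libraries in the fit, Meis2 had the largest log2 difference of the gene sums, close to that of Pbx3. Its summed peaks gave 38.8, 40.3 and 45.3 CPM at P1 and 17.8, 28.6 and 31.7 CPM at P14, with all P1 libraries above all P14 libraries. The log2 change was -0.71 (SE 0.23), with an unadjusted p of 0.00613 and an adjusted p of 0.112 (edgeR) over 17119 genes. Of all genes 3.19% passed, 0.613% higher and 2.58% lower, and of the 8 members 0 did, with Meis2 and Pbx2 at an unadjusted p under 0.05. Without P14 replicate 1 the Meis2 value was -0.47 (adjusted p = 0.605 in edgeR's test). Without P1 replicate 2, P1 replicate 3 or P14 replicate 3, Pbx3 was larger, at -0.95, -0.75 and -0.93 beside -0.75, -0.66 and -0.89 at Meis2. The sums were not fitted under scaling by the reads outside peaks, where Meis2 peaks 1, 2 and 5 were positive (0.88, 1.00 and 0.99). Pbx2 gave 21.6, 27.1 and 37.0 CPM against 42.1, 47.7 and 31.2 CPM, a log2 change of 0.51 (SE 0.23, adjusted p = 0.345) with overlapping groups. Pbx3 gave 29.3, 13.2 and 19.1 CPM against 8.32, 14.1 and 17.1 CPM, a log2 change of -0.69 (SE 0.34, adjusted p = 0.394). Pbx4 gave 20.4, 17.3 and 16.7 CPM against 24.4, 20.5 and 22.4 CPM, a log2 change of 0.32 (SE 0.25). All P14 libraries were above all P1 libraries, although the highest P1 and the lowest P14 library nearly met. Meis1, Meis3, Pknox1 and Pknox2 had log2 changes of 0.17, 0.30, 0.09 and 0.03, beside standard errors of 0.16, 0.39, 0.12 and 0.15. Without P1 replicate 1 the Meis3 value was -0.19. Groups without overlap occurred in 7.14% of all genes with P14 higher and in 9.43% with P1 higher.

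The same reads can be set against the DNA beside each peak, which needs no scaling factor between libraries. The ratio still carries how strongly each library was enriched in peaks. Read density in all peaks was 2.96 to 3.49 times that between peaks at P1 and 4.62 to 10.2 times at P14. For 43 of the member peaks at least 1 stretch between peaks touched the peak, and the read density of the peak was divided by that of those stretches in the same library. The median over members was 1.27, 2.02 and 2.01 in P1 replicates 1 to 3 and 5.46, 2.99 and 2.82 at P14, beside 1.71, 2.07 and 1.95 and then 4.73, 2.99 and 2.73 over all peaks. In 19 of 43 members (44.2%) all P14 libraries were above all P1 libraries, beside 42.4% of all peaks. Only Meis2 peak 4 had all P1 libraries above all P14 libraries, a pattern held by 2.05% of all peaks. Its density was 3.38, 2.01 and 3.23 times that of its flanks at P1 and 1.15, 1.53 and 1.68 times at P14. Meis2 peak 3 had ratios of 1.22, 3.65 and 3.18 against 1.37, 1.54 and 2.23. At Meis1 peak 10 the ratios were 1.13, 0.787 and 0.86 at P1 and 5.28, 2.63 and 2.27 at P14, so that this peak lay below its flanks in P1 replicates 2 and 3. At Pbx2 they were 2.05, 5.45 and 5.09 against 12.2, 9.44 and 11.6.

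**Figure D4:**
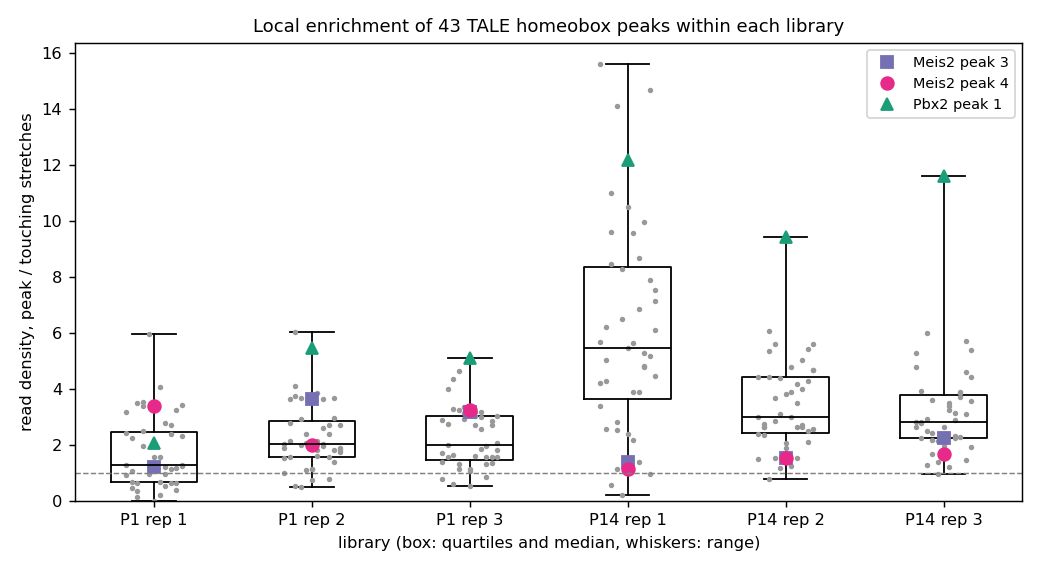
Read density of each of 43 member peaks divided by that of the touching stretches, on the y axis, in each library on the x axis, with boxes for quartiles, whiskers for the range and coloured markers for Meis2 peaks 3 and 4 and Pbx2 peak 1. Medians lie between 1.27 and 2.02 at P1 and between 2.82 and 5.46 at P14, while Meis2 peak 4 goes from 2.01 to 3.38 at P1 down to 1.15 to 1.68 at P14.

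Scaling moved the whole set. When libraries were scaled to their reads between peaks, the median log2 change was 1.18 over all peaks and 1.30 over members, and 41 of 43 members were positive. That scaling called 5 member peaks higher and 0 lower, where it called 7.56% of all, 7.51% higher and 0.0527% lower. They were Meis1 peaks 8 and 10, Meis3 peak 1 and Pknox2 peaks 10 and 12, the same 5 peaks that had the highest log2 changes with TMM factors.

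Member peaks together held 0.0308%, 0.0333% and 0.0346% of the reads in peaks at P1 and 0.0368%, 0.0388% and 0.0367% at P14. All P14 libraries were above all P1 libraries, with a difference of 0.00456 percentage points and an exact two-sided permutation p of 0.1, the smallest that 3 libraries against 3 allow. This share carries no TMM factor. In the fit with no TMM factor, the median log2 change was 0.15 over all tested peaks and 0.23 over member peaks, so the typical peak rose as well. Regions below the minimum of the table do not enter this share.

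The partners and relatives of these genes were read from 4 lists. Among 8 other TALE genes, Tgif2, Mkx and Irx6 had 8 tested peaks, of which 0 passed, with a median log2 change of 0.02. The smallest p was at a Tgif2 peak (chromosome 2, 156839154 to 156839772) with 2, 4 and 7 reads in P1 libraries and 32, 13 and 10 in P14 libraries, and a log2 change of 0.91 (SE 0.56). Of 39 HOX genes, the DNA-binding partners of PBX, only Hoxb3 and Hoxd3 had a peak, neither passed, and the smaller p was at a Hoxb3 peak (chromosome 11, 96343870 to 96344773) that the table shares with Gm11536, with 2, 5 and 10 reads in P1 libraries, 55, 29 and 18 in P14 libraries and an adjusted p of 0.175 in edgeR's test. Of the cell cycle inhibitor genes Cdkn1a, Cdkn2a and Cdkn2b, which are known to act downstream of Meis1, Cdkn1a had 1 peak (chromosome 17, 29097728 to 29099261). It carried 29, 42 and 27 reads against 133, 65 and 51, with a log2 change of 0.21 (SE 0.25). Of 9 SMAD and corepressor genes that work with TGIF1, 8 had 46 tested peaks, of which 0 passed with a higher and 1 with a lower value at P14, beside 0.104% and 2.46% of all tested peaks. That peak, assigned to Ctbp2 and Fgfr2 (chromosome 7, 132987705 to 132988420), carried 20, 16 and 12 reads against 14, 5 and 1, with a log2 change of -2.47 (SE 0.55, adjusted p = 0.027 in edgeR's test). Without P14 replicate 1 no peak of the whole table passed, this one included. The median of that list was 0.08.

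The peaks whose values were most like those of Meis2 peak 4 over the 6 libraries lay at Cdh8, at Dlgap1 and at Atp11b. Likeness was the Euclidean distance between log2 CPM values (with 0.5 added) after the mean of each peak was removed, and it was 0.188, 0.204 and 0.236. The Cdh8 peak (chromosome 8, 99238621 to 99239265) carried 20, 13 and 20 reads in the P1 libraries and 7, 10 and 9 in the P14 libraries. With 6 libraries and many peaks, close matches of this kind are a description only.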

How the data were processed

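MBD-seq counts from 3 P1 and 3 P14 libraries were used. Per the labels' protocols, sonicated DNA was enriched for methylated CpG and sequenced for 36 cycles. Values in the deposited table are unscaled whole read counts, 1 column per library. Builds GRCm38 and mm10 and the tools edgeR 3.2.4, bedtools, MACS and BWA are named, per the submitters' processing notes. For peak-calling settings, duplicates and pooling nothing is given in the sources used here. Of 221524 lines, 7567 repeated an interval for a further gene and were collapsed. Table starts count from 0 and are printed from 1. Peaks were told from the stretches between them by gene names, by the alternation of touching regions and, for 17551 regions, by read density alone, a rule that placed 94.6% of the settled regions alike.

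Age was tested with edgeR 4.0.16 (quasi-likelihood F test) in R 4.3.3 over all peaks, with TMM factors, filterByExpr set by the total reads of each library, and Benjamini-Hochberg adjustment at 0.05. The standard error is the log2 change divided by the square root of F. The planned filter named no library size, and the smaller totals in peaks were tried as an added alternative. In simulated counts for these P14 and P1 peaks (93702 peaks in the fit), 17 of 100 peaks changed 2-fold and 93 of 100 changed 4-fold were recovered, and 8 of 118 calls were false. The changed peaks were drawn only from peaks above a minimum mean read count. Meis2 peaks 3 and 4 and many other member peaks lay below that minimum, so recovery at their read counts was not measured. Alternatives used limma 3.58.1 and DESeq2 1.42.0. Share tests used scipy 1.17.1.

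Peaks with values are, per gene, that of smallest p, the densest, the one within 5000 bp of a start and any past the threshold. Meis1 peaks 8 and 9, Meis2 peaks 3 and 5, Meis3 peak 2, Pknox1 peak 9 and Pknox2 peak 7 were named after their values were seen. The members, lists and the fit over peaks were chosen with earlier results of these data known. Sequences are from RefSeq, GRCm38.p6.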

Additional observations from a re-analysis of the deposited data

How the results depend on the processing

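No tested member peak passed with TMM or RLE factors, with no TMM factor, with all regions in the fit or with gene-named peaks only. The same held with DESeq2, with the filter set by the reads in peaks (added after seeing the data) and with any 1 library left out. DESeq2 gave no adjusted p at Meis1 peak 9, Pbx3 peak 2 and Pknox2 peaks 3 and 10. The filter set by the reads in peaks kept 39 member peaks. Both limma-voom and the setting with no filter on low counts called 2 member peaks lower, limma-voom at Meis2 peaks 3 and 4 and the other at Pbx3 peak 3 and Pknox2 peak 7. Scaling to the reads between peaks called 5 higher and 0 lower. That scaling shifted the median of all peaks to 1.18 and left 41 of 43 member peaks positive. With no filter and 1 library left out, added after seeing the data, 0 to 1 member peaks were called lower, Meis2 peak 3 without P1 replicate 1 and Pbx3 peak 3 without P1 replicate 2. The log2 change was then -3.71 to -2.14 at Pbx3 peak 3 and -2.32 to -1.66 at Pknox2 peak 7.

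Over all peaks, 101 higher and 2380 lower calls became 0 and 0 with all regions in the fit, 7266 and 51 under that scaling, and 40 and 283 without both libraries numbered 1. Lower calls were 700 with no TMM factor, 4195 with limma-voom and 1349 among gene-named peaks. Leaving out 1 library gave 0 to 74 higher and 0 to 1395 lower calls, with 0 of both without P14 replicate 1. For gene sums, 105 higher and 441 lower calls became 3 to 150 and 46 to 465 with 1 library left out.

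The replicate numbers are not shown to pair libraries, with correlations of deviations of -0.0489, -0.0459 and 0.0203 for the same number. With the replicate block, 0 peaks were called in either direction, members included, and 29 higher and 85 lower genes, of which 0 members.

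With all regions in the fit and under scaling to reads between peaks, negative member peaks went from 18 to 2. Among the peaks chosen by the naming rule, signs turned at Meis1 peak 3 (0.43 and 0.87), Meis2 peak 1 (0.44 and 0.88), Pknox1 peak 6 (0.44 and 0.85) and Pknox2 peak 8 (0.59 and 1.04, and 0.019 with no TMM factor). Without both libraries numbered 1 they turned at Pbx4 peak 2 (-0.033) and Pknox1 peak 6 (0.10). With 1 library left out the log2 change ranged from -0.69 to 0.0092 at Meis2 peak 1, -0.0091 to 0.64 at Pbx3 peak 1, -0.20 to 0.28 at Pbx4 peak 2, -0.55 to 0.048 at Pknox1 peak 6, -0.19 to 0.60 at Meis3 summed, -0.094 to 0.15 at Pknox2 summed. The causes were not tested. Low reads per peak limit all of these values.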
